A study of Equus caballus with 10 samples.

Results

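The genes described here are 10 genes of transforming growth factor beta (TGF-β) signalling, taken by symbol from the 29196 genes of the deposited table: the ligands TGFB1, TGFB2 and TGFB3, the receptors TGFBR1, TGFBR2 and TGFBR3, the signal transducers SMAD2, SMAD3 and SMAD7, and the latent TGF-β binding protein LTBP2. RNA was sequenced from primary tendon cells (tenocytes), taken after death from a flexor tendon (the superficial digital one) of adult horses and cultured for 14 days in 3D gels of bovine collagen. The cells of 5 horses, labelled 090811, 130911, 180412, 250718B and CD and called lines 1 to 5 in what follows, each gave 1 library to each of 2 groups. Both groups received PF-06650833, which inhibits IRAK-4, a kinase that relays the signal of the interleukin-1 receptor, daily at 100 nM, and 1 group also received the inflammatory cytokine interleukin-1 beta (IL-1β) at 17 ng/ml every few days. The group with the inhibitor alone is called PF and the group with both agents PF/IL-1β. No group carried a genetic change, and several gels were harvested for RNA in each group. The comparison asks how RNA levels differed between cells with and without IL-1β while the inhibitor was present. Libraries of untreated cells and of cells given IL-1β without the inhibitor were not analysed here.

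TGF-β ligands are secreted in a latent form that latent TGF-β binding proteins and fibrillins hold in the matrix. Once released, a ligand binds the type II receptor TGFBR2, which activates the type I receptor TGFBR1, and the type III receptor TGFBR3 (betaglycan) presents ligand to them. TGFBR1 phosphorylates SMAD2 and SMAD3, which enter the nucleus with SMAD4, and SMAD7, itself a target gene, blocks the receptor. In tendon, TGF-β is known for its part in the development of tendon progenitors and in matrix synthesis and scarring. Only RNA was measured, so the data hold neither ligand release nor SMAD phosphorylation.

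The estimated number of reads on genes per library ran from 2.66e+07 to 3.60e+07 in PF and from 2.69e+07 to 3.36e+07 in PF/IL-1β. All values are variance-stabilized log2 expression, on which a gene with 0 reads has the value 3.43. The 10 genes had between 389 and 33753 estimated reads in every library, far above the levels at which this scale compresses differences. Of 11 tenocyte and fibroblast markers, 10 were listed. COL1A1, COL1A2, DCN and PDGFRA were abundant, and tenomodulin (TNMD) was at 0 reads in all 10 libraries. SCX, MKX and COMP of this list were lower in PF/IL-1β. Among markers of other cells, PTPRC, EPCAM, CD3E and MYOD1 had at most 3 reads. Other markers of such cells reached more estimated reads: 1469 for CD14, 1453 for CDH1, 1063 for ACTA1, 31146 for MYH11 and 2047 for MCAM. CD68 (log2 fold change 1.70) was higher and CDH1 (-2.22), DES (-2.98), RGS5 (-1.96) and CSPG4 (-1.84) were lower in PF/IL-1β. Summed normalized counts were 251.7 to 1997 for the leukocyte list in PF and 378.5 to 2199 in PF/IL-1β, 2178 to 3961 and 914.6 to 2856 for the pericyte list, 539.1 to 1574 and 45.4 to 443.6 for the epithelial list, 1253 to 34137 and 3736 to 12112 for the muscle list, and 16.3 to 50.4 and 5.12 to 30.7 for the endothelial list. The part of these markers in the results below was not tested, and in such bulk samples a change in the number of cells of a type and a change in RNA per cell cannot be told apart.

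Of the 10 genes, all of which could be tested, LTBP2 was differentially expressed and fell in PF/IL-1β. The threshold was an adjusted p below 0.05 from limma, with Benjamini-Hochberg adjustment over the 17992 tested genes, together with a log2 fold change of 1 or more in either direction. It was met by 6.68% of all tested genes, and with a fall by 3.57%, so 1 gene of 10 is close to the background. With no minimum fold change, TGFBR1 also fell, giving 2 of the 10 genes, both lower, where 15.5% of all tested genes passed and 7.89% fell. With the tenocyte line as a block, TGFB3 passed that threshold as well, giving 3 of 10, all lower. In that fit 3996 of the 17992 tested genes passed in either direction, and 11.3% of tested genes fell. LTBP2 and TGFBR1 were the 2 genes whose groups did not overlap, both lower in PF/IL-1β, which held for 6.41% of all tested genes. LTBP2, TGFB3, TGFBR1 and TGFBR2 were lower in all 5 lines, as were 16.8% of tested genes, and 0 of the 10 genes were higher in all 5, as were 16% of tested genes. The median absolute log2 fold change was 0.35 over the 10 genes and 0.25 over all tested genes. The mean was higher for 4 genes and lower for 6.

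**Figure D1:**
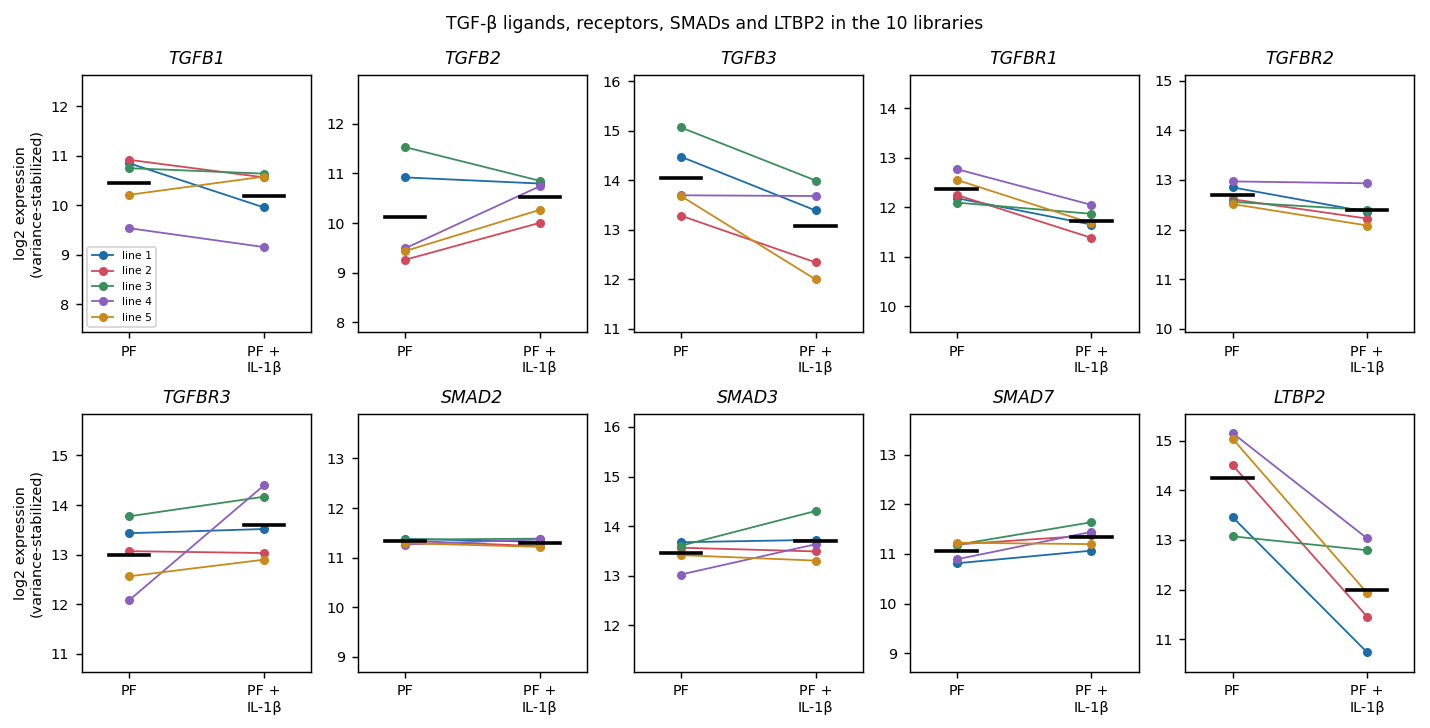
Variance-stabilized log2 expression of the 10 genes in the 10 libraries, PF on the left and PF/IL-1β on the right of each panel. Each coloured line joins the 2 libraries of a tenocyte line, black bars are group means (n = 5), and all vertical axes span the same range; LTBP2 moves furthest and SMAD2 hardly at all.

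LTBP2 encodes a large matrix glycoprotein of the LTBP family that associates with fibrillin microfibrils and, unlike other members of its family, does not bind latent TGF-β. In PF its log2 expression was 13.46, 14.51, 13.07, 15.16 and 15.04 in lines 1 to 5. In PF/IL-1β it was 10.73, 11.45, 12.79, 13.03 and 11.93 in the same lines. Every PF/IL-1β library lay below every PF library, but the gap was narrow, between 13.07 in line 3 in PF and 13.03 in line 4 in PF/IL-1β. Line 3 was the lowest library in PF and the second highest in PF/IL-1β. The mean fell from 14.25 ± 0.94 (SD, n = 5) to 11.99 ± 0.95 (SD, n = 5). The log2 fold change was -2.26 with a standard error of 0.51 (limma, adjusted p = 0.0131), which is 4.80-fold lower with a 95% interval of 2.21 to 10.4. The difference within a line was -2.73, -3.06, -2.13 and -3.12 in lines 1, 2, 4 and 5 and -0.28 in line 3. Line 3 thus moved far less than the other 4 lines. Without both libraries of line 2 the adjusted p was 0.0774 and without those of line 5 it was 0.0700, both from limma, at log2 fold changes of -2.06 and -2.05. With the line as a block LTBP2 passed the threshold whichever of the 5 lines was left out, its adjusted p from limma then lying between 0.000363 and 0.0336.

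The 3 ligand genes did not pass the threshold in the fit without the block. TGFB3, a ligand expressed in developing tendon, had log2 expression of 14.47, 13.28, 15.06, 13.70 and 13.68 in lines 1 to 5 in PF. In PF/IL-1β the values of lines 1 to 4 were 13.39, 12.34, 13.99 and 13.68, and line 5 was the lowest of all 10 libraries, 1.68 below its PF library. The groups overlapped, but each line was lower in PF/IL-1β, by -1.08, -0.94, -1.07, -0.01 and -1.68. Line 4 was the exception in size, with almost the same value in both libraries. The mean fell from 14.04 ± 0.72 (SD, n = 5) to 13.08 ± 0.87 (SD, n = 5). The log2 fold change was -0.96 with a standard error of 0.43 (limma, adjusted p = 0.164). With the line as a block the same difference had a standard error of 0.21 and an adjusted p of 0.0159 from limma, its fold change just short of the minimum. Without line 4 the blocked log2 fold change was -1.20 (adjusted p = 0.00245 from limma), and TGFB3 then counted as differentially expressed. As line 4 moved least, leaving it out must enlarge the mean fall, and this fit was chosen after the data were seen. Without the PF/IL-1β library of line 5, the line that moved most, the log2 fold change without the block was -0.69 (adjusted p = 0.324 from limma).

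TGFB1, the most widely studied ligand, was at 9.54 to 10.92 in PF and at 9.16 to 10.64 in PF/IL-1β. Line 4 was the lowest library of TGFB1 in both groups, and the difference was negative in 4 lines and 0.37 in line 5. The log2 fold change was -0.27 (95% interval -1.01 to 0.46, adjusted p = 0.643 from limma). TGFB2, the third ligand, which depends most on TGFBR3 for binding, was at 10.92, 9.26, 11.53, 9.49 and 9.43 in lines 1 to 5 in PF and at 10.80, 10.00, 10.85, 10.74 and 10.27 in PF/IL-1β. The lines with low TGFB2 in PF (2, 4 and 5) were higher in PF/IL-1β, by 0.75, 1.25 and 0.83, and the lines with high TGFB2 (1 and 3) were lower, by -0.12 and -0.68. The PF value enters both this sorting and the difference, so the pattern is a description and was not tested. The SD between lines was 1.03 in PF and 0.38 in PF/IL-1β, a contrast that was not tested either. The log2 fold change of TGFB2 was 0.41 (95% interval -0.52 to 1.33, adjusted p = 0.573 from limma).

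TGFBR1, the kinase that phosphorylates SMAD2 and SMAD3, was lower in PF/IL-1β in all 5 lines. Its log2 expression was 12.18, 12.25, 12.09, 12.77 and 12.55 in lines 1 to 5 in PF and 11.65, 11.38, 11.87, 12.05 and 11.68 in PF/IL-1β. The groups did not overlap, although line 3 without IL-1β and line 4 with it were close. The mean fell from 12.37 ± 0.28 (SD, n = 5) to 11.72 ± 0.25 (SD, n = 5). The log2 fold change was -0.64 with a standard error of 0.16 (limma, adjusted p = 0.0179), or 1.56-fold lower. This is below the minimum fold change and TGFBR1 was not counted as differentially expressed. Leaving out both libraries of line 1, 2 or 5 gave adjusted p-values from limma of 0.0651, 0.0706 and 0.0934, while with the block the 5 fits that left out a line gave 0.00375 to 0.0316.

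TGFBR2, the ligand-binding receptor kinase, was lower in all 5 lines by smaller amounts, between -0.49 and -0.04. Its values were 12.52 to 12.97 in PF and 12.08 to 12.93 in PF/IL-1β, and the groups overlapped. The log2 fold change was -0.30 (95% interval -0.65 to 0.04, adjusted p = 0.227 from limma, and 0.0568 with the block). Without the PF/IL-1β library of line 4, the line that moved least, it was -0.44 (adjusted p = 0.0310 from limma), still below the minimum fold change. That omission takes out the highest PF/IL-1β library and so enlarges the fall. Over the 15 fits made without a library or a line, the log2 fold change of TGFBR2 ran from -0.44 to -0.22. It met the full threshold in 0 of them, and over all alternatives its adjusted p from limma reached 0.482. TGFBR3, the co-receptor betaglycan, was at 13.43, 13.07, 13.77, 12.08 and 12.56 in lines 1 to 5 in PF and at 13.52, 13.03, 14.17, 14.40 and 12.90 in PF/IL-1β. Line 4 went from the lowest library of the first group to the highest of the second, a difference of 2.32, against -0.04 to 0.39 in the other lines. The log2 fold change of 0.62 (95% interval -0.19 to 1.42, adjusted p = 0.292 from limma) rested on that line and was 0.19 without it.

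The 3 SMAD genes did not pass the threshold with or without the block. SMAD2, a receptor-activated SMAD, lay between 11.22 and 11.38 in all 10 libraries, with SDs of 0.05 and 0.08. Its log2 fold change of -0.02 had a 95% interval of -0.18 to 0.13 (adjusted p = 0.864 from limma), the narrowest of the 10 genes. SMAD3, the other receptor-activated SMAD, was at 13.02 to 13.68 in PF and at 13.30 to 14.30 in PF/IL-1β. It was higher by 0.70 in line 3 and 0.61 in line 4 and within -0.11 and 0.05 in the other lines (log2 fold change 0.24, adjusted p = 0.451 from limma). SMAD7, the inhibitory SMAD, was at 10.81, 11.19, 11.18, 10.89 and 11.23 in lines 1 to 5 in PF and at 11.07, 11.37, 11.64, 11.44 and 11.20 in PF/IL-1β. It was higher in PF/IL-1β in 4 lines and lower by -0.03 in line 5, a log2 fold change of 0.28 (95% interval 0.00 to 0.56, adjusted p = 0.164 from limma, and 0.0844 with the block).

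**Figure D2:**
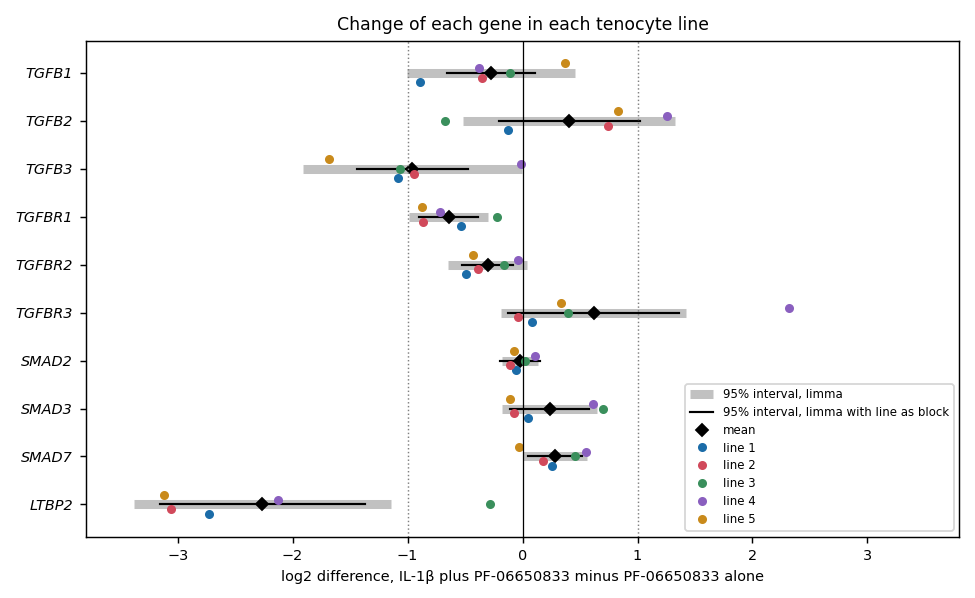
Difference in log2 expression between PF/IL-1β and PF for the 10 genes, as coloured points for lines 1 to 5 and diamonds for the mean. Grey bars are 95% intervals from limma (n = 5 per group), thin black bars those with the line as a block, and dotted lines mark the minimum log2 fold change of 1; line 3 stands apart in LTBP2 and line 4 in TGFBR3 and TGFB3.

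For 9 of the 10 genes the 2 libraries of a horse tended to deviate alike from their group means. Of the sum of squares within groups, the means of the lines held 85.9% for TGFB1, 85.7% for TGFB3 and 87.0% for TGFBR2. Unrelated libraries would give 50%, so these shares are larger than the part of the spread that belongs to the horse. The share was above 50% for 9 of the 10 genes and lowest for TGFBR3, at 48.3%. The median share was 71.9% over the 10 genes and 66.1% over all tested genes.

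Whether related genes differed in their change was tested on the difference of 2 genes within each library, for 9 pairs of ligands, receptors and SMADs, with an exact two-sided permutation test of 5 against 5 libraries, whose smallest p is 0.00794. After adjustment over the 9 pairs 0 of them passed, while 4 had an unadjusted p below 0.05. A single pair at the smallest p has an adjusted p of 0.0714, so no pair could pass alone and the count of 0 does not show that the genes of a pair changed alike. The largest shift was that of TGFB3 against TGFB2. TGFB3 exceeded TGFB2 by 3.55, 4.03, 3.53, 4.21 and 4.25 on the log2 scale in lines 1 to 5 in PF and by 2.59, 2.34, 3.14, 2.94 and 1.73 in PF/IL-1β. These values did not overlap, and TGFB3 lost ground to TGFB2 in all 5 lines, by -1.37 on average (exact permutation p = 0.00794, adjusted p = 0.0714). Since the genes differ in length, the level of such a difference says nothing about which RNA is more abundant, and only its shift between groups can be read.

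Among the receptors, TGFBR3 gained on TGFBR1 by 1.26 (exact permutation p = 0.0397) and on TGFBR2 by 0.92 (exact permutation p = 0.0476), each in 5 of 5 lines. TGFBR2 gained on TGFBR1 by 0.34 (exact permutation p = 0.0556), also in 5 of 5 lines. SMAD7 gained on SMAD2 by 0.31 in 5 of 5 lines (exact permutation p = 0.0476). Each of these 4 shifts had an adjusted p of 0.100 over the 9 pairs. The other 4 pairs, TGFB2 and TGFB3 against TGFB1 and SMAD3 against SMAD2 and SMAD7, had exact permutation p-values of 0.198 to 0.802. Without the library of line 3 in PF, 3 pairs passed: TGFB3 against TGFB2 (-1.46, exact permutation test, adjusted p = 0.0357), TGFBR3 against TGFBR2 (1.16, adjusted p = 0.0357) and TGFBR3 against TGFBR1 (1.53, adjusted p = 0.0476). No pair passed in the other fits made without a library or a line. Without both libraries of line 4, TGFBR3 gained on TGFBR1 by 0.82 (exact permutation p = 0.143) and on TGFBR2 by 0.56 (exact permutation p = 0.171).

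**Figure D3:**
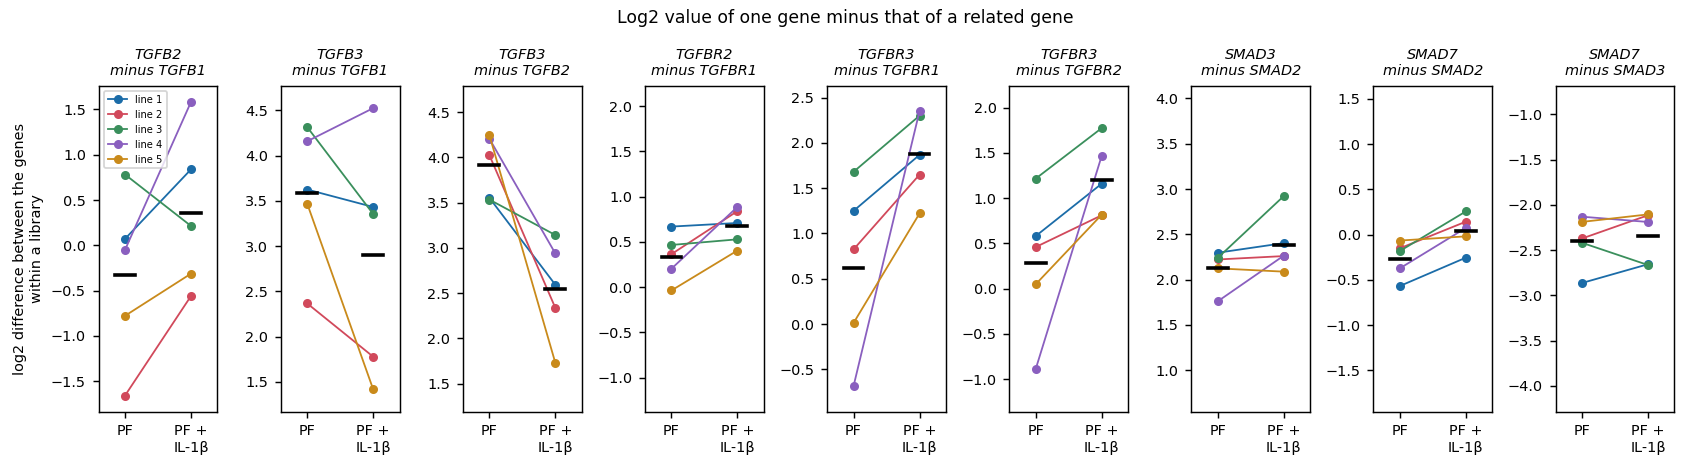
Log2 value of one gene minus that of a related gene within the same library, for the 9 pairs in PF and PF/IL-1β. Coloured lines join the 2 libraries of a tenocyte line, black bars are group means (n = 5), and all vertical axes span the same range; for TGFB3 minus TGFB2 the groups do not overlap.

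Other genes of the pathway were read from a list of 93 genes in 5 roles, of which 91 were in the table and 90 could be tested. Of these, 21 were differentially expressed, 8 higher and 13 lower in PF/IL-1β, which is 23.3% against 6.68% of all tested genes. With the line as a block there were 25, 8 higher and 17 lower, against 8.26%. Over the list the log2 fold change had a median of -0.11, and over all tested genes one of -0.01. The list was written with earlier results of these data known and holds genes already seen to change, such as SCX, ASPN and ITGA11, so its share is not independent evidence. The number was 13 without line 1 and 12 without line 5.

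Of 16 tested genes for storage and activation of latent TGF-β, 2 rose and 2 fell, with a median log2 fold change of 0.02. The integrin subunits ITGB8 and ITGB6, which with ITGAV form receptors that release active TGF-β from its latent complex, both rose. ITGB8 was between 7.18 and 8.17 in PF and between 10.54 and 11.33 in PF/IL-1β, a log2 fold change of 3.08 (adjusted p = 7.28e-05 from limma). ITGB6 was a gene of few reads, at most 2 in PF and 2 to 62 in PF/IL-1β (log2 fold change 1.74, adjusted p = 0.0193 from limma), and did not pass without line 1, 2 or 5. The variance-stabilized scale compresses such low values, and on log2(normalized count + 1) the log2 fold change of ITGB6 was 3.70 and with 0.5 added 4.23. Their partner ITGAV had a log2 fold change of -0.56 (adjusted p = 0.0322 from limma), below the minimum fold change. The other integrin beta subunits on the list did not rise in this way. ITGB5 was lower in 5 of 5 lines (-0.67, adjusted p = 0.0423 from limma), below the minimum fold change. ITGB3 (0.14, adjusted p = 0.826 from limma) and ITGB1 (-0.10, adjusted p = 0.813) did not pass.

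THBS1, a matrix glycoprotein that can activate latent TGF-β, fell (log2 fold change -2.85, adjusted p = 0.0162 from limma). So did LTBP4, which anchors latent TGF-β in the matrix (-1.85, adjusted p = 0.0232 from limma). Both were lower in 5 of 5 lines, with overlapping groups. THBS1 did not pass without line 1, 2 or 5, and LTBP4 did not pass in 9 of 15 fits made without a library or a line. Line 3 had the smallest difference of both genes, as it had of LTBP2. THBS1 was at 15.49 and 14.87 in the 2 libraries of line 3, and LTBP4 at 11.27 and 10.73. The other family members LTBP1 (log2 fold change -0.19, adjusted p = 0.711 from limma) and LTBP3 (-0.21, adjusted p = 0.484) did not pass, nor did the fibrillin FBN1 (-0.68, adjusted p = 0.210).

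Of 10 receptor partners, BAMBI was differentially expressed and rose. BAMBI is a decoy receptor without a kinase domain that dampens TGF-β signalling. It was at 6.53 to 7.65 in PF and at 7.92 to 9.36 in PF/IL-1β (log2 fold change 1.76, adjusted p = 0.00438 from limma), with no overlap. CD109, a TGF-β co-receptor (-0.76, adjusted p = 0.0160 from limma), and VASN, a TGF-β binding protein (0.55, adjusted p = 0.0210), passed without the minimum fold change.

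Of 25 other SMADs and SMAD regulators, 0 were differentially expressed by limma, where 6.68% of all tested genes were, and 2 had an adjusted p below 0.05 without the minimum fold change, where 15.5% of all tested genes had. At an unadjusted p below 0.05 there were 4. The 2 with an adjusted p below 0.05 were SMURF1, a ubiquitin ligase for SMADs and receptors (log2 fold change 0.79, adjusted p = 0.00387 from limma), and SMAD9 (-0.41, adjusted p = 0.0190). SMAD4, the common partner, had a log2 fold change of -0.14 (adjusted p = 0.270 from limma). The corepressor SKIL, a target and inhibitor of SMADs, had a log2 fold change of 0.29 (adjusted p = 0.239 from limma). Of the 5 proteoglycans that can bind TGF-β, ASPN fell (log2 fold change -5.94, adjusted p = 0.00482 from limma) and DCN, BGN, FMOD and LUM did not pass.

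**Figure D4:**
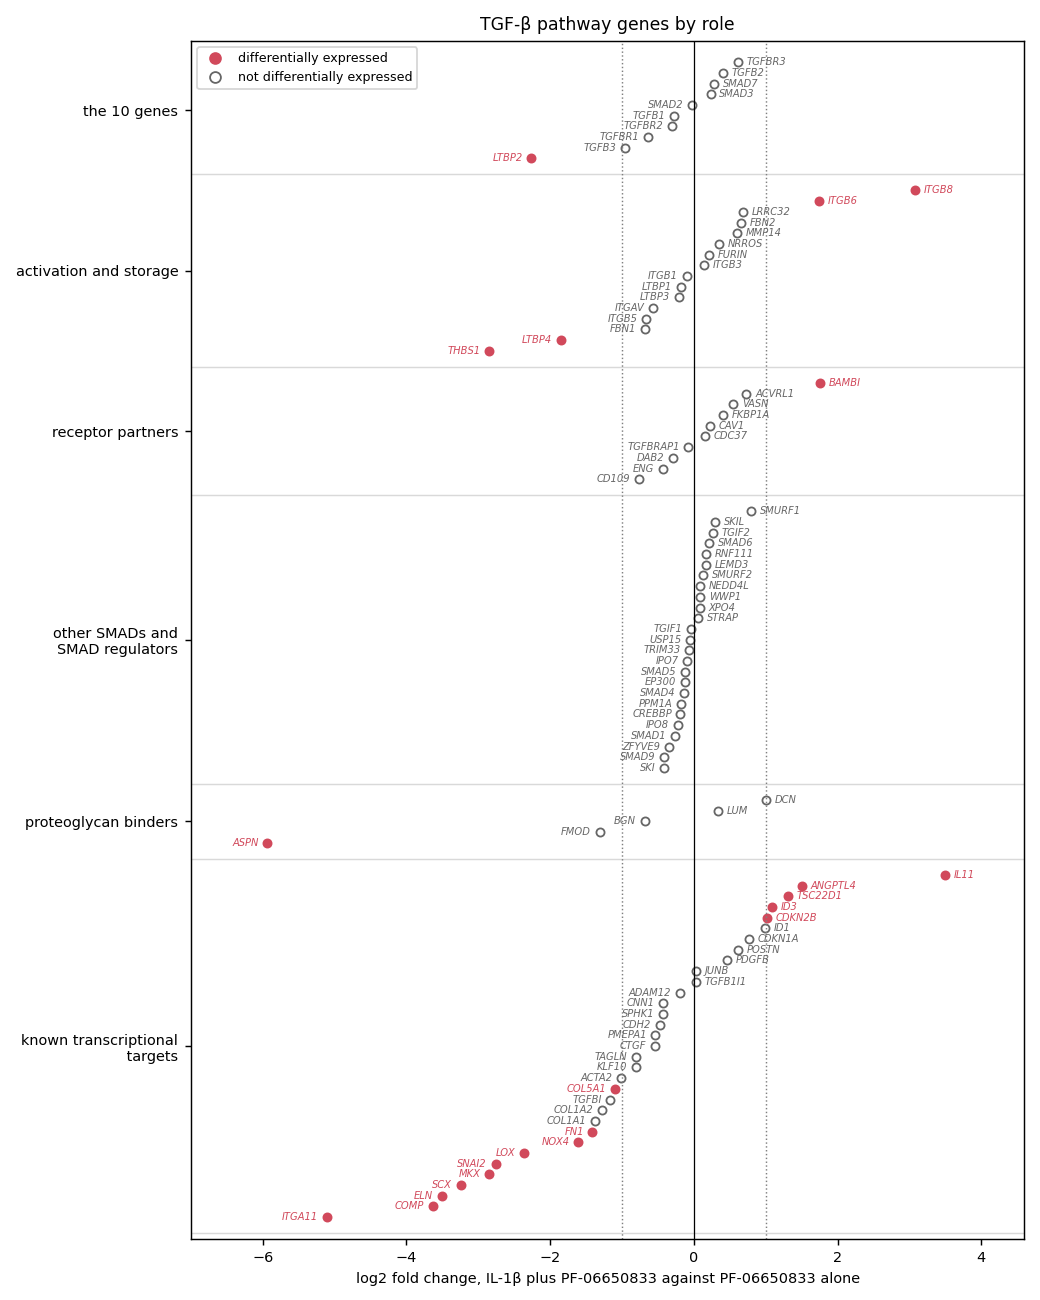
Log2 fold change between PF/IL-1β and PF for the 10 genes and other genes of the pathway, by role. Filled red points are differentially expressed genes and dotted lines mark a log2 fold change of -1 and 1. The SMADs and their regulators lie between the dotted lines, with SMURF1 furthest from 0 at 0.79. The known transcriptional targets spread in both directions with more genes lower.

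Of 34 tested genes known as transcriptional targets of TGF-β, 15 were differentially expressed, 5 higher and 10 lower. This is 44.1% of them, against 6.68% of all tested genes. With the line as a block it was 19, 5 higher and 14 lower, against 8.26% of all tested genes. These targets belong to the list written with earlier results known and include SCX and ITGA11, so the share is not independent evidence. The median log2 fold change of the 34 genes was -0.54. CTGF, the older symbol of CCN2, had a log2 fold change of -0.54 (adjusted p = 0.474 from limma), and PMEPA1, a feedback inhibitor, one of -0.54 (adjusted p = 0.133), and neither passed the threshold.

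Among the differentially expressed targets, those that rose with the smallest adjusted p were TSC22D1, IL11 and CDKN2B. TSC22D1, a leucine zipper regulator, had a log2 fold change of 1.31 (limma, adjusted p = 0.000147), and IL11, a cytokine of the IL-6 family, one of 3.49 (adjusted p = 0.000701). CDKN2B, a cell cycle inhibitor, had a log2 fold change of 1.02 (adjusted p = 0.00358 from limma), close to the minimum, and leaving out a library or a line took it below 1 in 4 of 15 fits. Among the differentially expressed targets that fell, the smallest adjusted p belonged to SCX (-3.24, adjusted p = 0.000611 from limma), SNAI2 (-2.76, adjusted p = 0.00458) and MKX (-2.85, adjusted p = 0.00554), all transcription factors and all lower in 5 of 5 lines. The matrix genes COL1A1 (-1.38, adjusted p = 0.0682 from limma), COL1A2 (-1.28, 0.0614), TGFBI (-1.16, 0.128) and the contractile gene ACTA2 (-1.01, 0.227) did not pass without the block and passed with it, at adjusted p-values from limma of 0.0129 to 0.0334. Many of these targets also answer to other signals, and the part of TGF-β in their changes was not tested.

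After removing the group means, the genes whose deviations over the 10 libraries were most like those of LTBP2 were ANKS6 (Pearson's r = 0.98), PTPRG (0.97) and JADE1 (0.96). These values are a description, since the libraries of a line share a donor and the genes were picked from all tested genes. ANKS6 (log2 fold change -0.31), PTPRG (-0.05) and JADE1 (-0.84) did not meet the threshold, JADE1 for its fold change alone (adjusted p = 0.0123 from limma).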

How the data were processed

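Reads were assigned by the authors to the transcripts of EquCab3.0 with Salmon (version 1.8), with correction for GC bias, and summed to genes with tximport. What the authors deposited is a log2 table, already normalized between libraries, with its variance stabilized. The transformation is not named in the sources used here and was recognised from the lowest value, 3.43, shared by all 10 libraries. It was inverted to normalized counts, and the spacing of low values gave the estimated reads: within 0.15 of a whole read fell 64.6% to 83.0% of low values per library (30% if spread evenly).

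Genes were tested where 5 or more of the 10 libraries exceeded that lowest value (17992 genes). The test was limma (version 3.58.1, run in R, version 4.3.3), using a trended prior variance and, as the paper names no donor term, no block. The fit with the line as a block stands beside it. The labels name the tenocyte line, so replicate numbers pair the libraries. Deviations from the group means correlated at 0.367 to 0.506 across genes within a line, against a mean of -0.107 between lines. Removing the group means forces the mean between lines below 0 when that within lines is above 0, so it is no independent background. Each group has 1 library per horse, and the fit without the block sets the difference against the spread between horses within groups. The same 5 horses are in both groups, so that fit ignores the pairing. The fit with the block sets the difference against its variation from line to line. For TGFB3 the standard error was 0.43 without the block and 0.21 with it. A gene that did not pass without the block is thus not shown to be unchanged. The fit without the block was run on simulated data whose libraries were independent of each other, and the fit with the block was not.

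The 10 genes and all lists were chosen with earlier results of these data known. Pathway genes named are CTGF (CCN2), PMEPA1 and SKIL and, per role, up to 3 differentially expressed genes in each direction with the smallest adjusted p. LTBP1, LTBP3, FBN1, ITGAV, ITGB1, ITGB3, ITGB5, CD109, VASN, SMURF1, SMAD4, SMAD9, the proteoglycans and the matrix genes were named after their values were seen. CCN2 and COL3A1 were not used here under those symbols. No sequences or positions are given, and 1 gene that this rule names is not reported here.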

Additional observations from a re-analysis of the deposited data

Results flagged for a closer look

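In 52 groups of 5 libraries, those of the 10 genes and of the named pathway genes, 1 library lay far from the other 4 of its group, where chance gives about 2.6. CDKN2B, the cell cycle inhibitor, was at 10.87 in line 2 in PF/IL-1β, against 9.87 to 10.12 in the other lines of that group. Without that library its log2 fold change was 0.84 (adjusted p = 0.00156 from limma).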

How the results depend on the processing

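The cause of the changes in this paragraph was not tested. With the replicate block, 1486 genes were differentially expressed against 1202, with 1 of the 10 genes and 25 pathway genes, and the block changed no other call than those named in the text. For the pairs the block gave 0, but with 5 lines its exact permutation test cannot go below p = 0.0625, so it could pass none. Without a minimum fold change there were 2782 genes, of which 2 of the 10 genes, and with the block as well 3996 genes, 3 of the 10 genes and 37 pathway genes. At an adjusted p below 0.01 there were 719 genes, 0 of the 10 genes and 13 pathway genes. With log2(normalized count + 1) and the replicate block there were 1809. Over 15 fits made without a library or a line, the count ranged from 762 to 1422 genes, 0 to 1 of the 10 genes, 12 to 24 pathway genes and 0 to 3 pairs. Leaving out line 1, 2 or 5 gave 762, 790 and 777 genes. Fits that left out a line with the block, chosen after the data were seen, gave 1 to 2 of the 10 genes, the second being TGFB3 without line 4. Of the 10 genes, SMAD2 changed sign, to 0.0062 when each library was centred on its median, and the others kept their direction under all alternatives run.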
